A study of Danio rerio with 14 samples.

Results

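The uninjured lateral rectus (LR) muscle of adult zebrafish was described here from the deposited expression values of the CON group, the tissue collected at 0 hours post injury (hpi). Its members were all 30963 features with a gene symbol, of 31014 features in the table, and the values rest on 4 CON libraries of the 14 libraries in the series. The LR is the extraocular muscle (EOM) that turns the eye outward. The series compares this muscle with LR muscle regenerating after injury, and the injured groups were not used here. The fish carried an actin:GFP transgene by their label, a reporter that the study describes as driven by an alpha-actin promoter, and each library pooled the muscles of several fish. Muscle was cut by laser microdissection from frozen sections of decalcified heads, and total RNA depleted of ribosomal RNA was sequenced. All levels are in FPKM (fragments per kilobase of transcript, here scaled by the upper quartile of each library), which corrects for length, so that levels of different genes can be set side by side. Cuffdiff combined the 4 libraries into 1 value per feature. No SD, n or test therefore accompanies any level, the read depth behind a value is unknown here, and neighbours in a ranking cannot be told apart. Rank 1 is the highest FPKM among the features with a symbol.

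A skeletal muscle fibre shortens when calcium released from the sarcoplasmic reticulum lets myosin of the thick filament pull on actin of the thin filament. Troponin and tropomyosin gate that step, calcium pumps and parvalbumin lower calcium again, and creatine kinase, glycolysis and mitochondria restore ATP. Extraocular muscles are known in vertebrates for fast contraction, many mitochondria, dense innervation and a developmental program that differs from that of trunk muscle. Motor axons wrapped by Schwann cells enter the muscle while the cell bodies of the motor neurons lie in the brainstem. Capillaries, mural cells and a collagen-rich sheath of fibroblasts surround the fibres. The gene lists below follow these parts: 14 muscle classes, 4 nerve classes, 4 vessel classes and 7 connective tissue classes.

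Of the features with a symbol, 13085 reached 1 FPKM, 2093 reached 10 FPKM, 307 reached 100 FPKM and 5678 were listed at 0. The 3 highest features held 90.2% of the summed FPKM. These were LOC101885394 at 1565690 FPKM, LOC101882117 at 431628 FPKM and zgc:158463 at 310648 FPKM. RefSeq types zgc:158463 as ribosomal RNA, and the other 2 are uncharacterized in the table. Shares of the sum are therefore also given without these 3 features. The next places held the small nuclear RNA rn7sk (28931 FPKM, rank 4) and the RNase P RNA rpph1 (5218 FPKM, rank 6). Among the 100 highest features, 87 were protein-coding, 35 encoded cytosolic ribosomal proteins, 14 encoded nuclear subunits of the respiratory chain and ATP synthase, and 19 belonged to a muscle class.

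Genes of the muscle list ranked highest among the 4 tissue lists. The lists were chosen with earlier results of these data known, and the muscle list also holds genes that other cells express, such as gapdh. Of 299 muscle genes, 262 reached 1 FPKM, 55 reached 100 FPKM and 131 (43.8%) ranked among the 1000 highest features. The corresponding counts among the 1000 highest were 13 of 133 nerve genes (9.77%), 5 of 117 vessel genes (4.27%) and 19 of 208 connective tissue genes (9.13%), where the 1000 highest are 3.23% of all features. None of the nerve, vessel and connective tissue genes was among the 100 highest. Over all 30963 features, 13085 reached 1 FPKM and 307 reached 100 FPKM. Median FPKM was 16.8 for muscle, 1.19 for nerve, 2.97 for vessel and 2.35 for connective tissue genes, beside 0.584 over all features. Muscle genes held 1.804% of the summed FPKM, or 18.4% without the 3 highest features. Without those features, connective tissue genes held 0.661%, vessel genes 0.398% and nerve genes 0.385%. On the same basis, vessel genes without those of erythrocytes held 0.185% and nerve genes without those of photoreceptors 0.363%, which reverses the order of these 2 tissues. A low level in a mixed tissue cannot be told apart as fewer cells of a type or less RNA per cell.

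**Figure D1:**
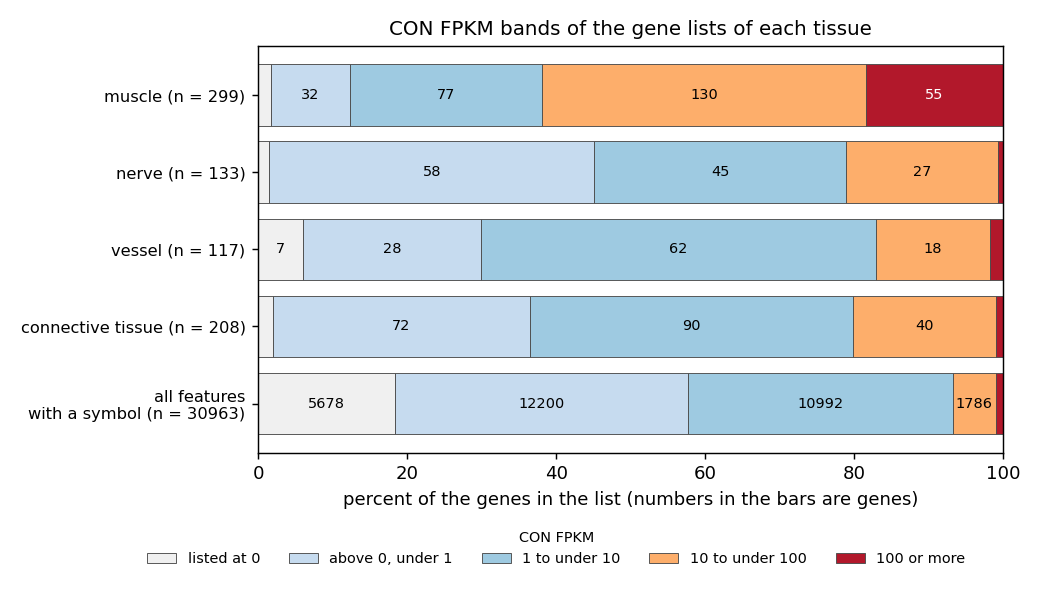
Horizontal bars give, for each tissue's gene list and for all features with a symbol, the percent of genes in 5 bands of CON FPKM, and numbers in the bars are counts of genes. Of the muscle genes, 55 of 299 stood at 100 FPKM or more, against 1 nerve, 2 vessel and 2 connective tissue genes.

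The highest muscle genes were enzymes of energy supply and components of the contractile apparatus. Gapdh, the glycolytic glyceraldehyde-3-phosphate dehydrogenase (Entrez 317743, GRCz10 chr16:17284694-17289624), was the highest gene of the muscle list (5194 FPKM, rank 7). Other cells make this enzyme too. Ckmb, the b copy of muscle creatine kinase (chr15:23708453-23711808), followed (4316 FPKM, rank 8), and its a copy ckma was also near the top (2321 FPKM, rank 14). These 2 enzymes regenerate ATP from phosphocreatine, and the mitochondrial creatine kinases ckmt2b and ckmt2a, which load creatine in mitochondria, reached 340.3 and 299 FPKM. Ak1, an adenylate kinase, stood at 672 FPKM and ampd1, muscle AMP deaminase, at 88.4 FPKM. The brain-type creatine kinases were far lower, with ckbb just outside the 1000 highest (21.2 FPKM, rank 1007) and ckba at 7.36 FPKM. In the whole phosphocreatine and adenylate class, 12 of 12 genes were at 1 FPKM or more and 7 were among the 1000 highest.

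Glycolysis was represented at every step, since all 34 listed enzymes reached 1 FPKM and 25 were among the 1000 highest. After gapdh came eno3, the muscle enolase (1201 FPKM, rank 18), and the aldolases aldoaa (700.1 FPKM, rank 41) and aldoab (483 FPKM, rank 74). Lactate dehydrogenase ldhba, the heart-type subunit, stood at 345 FPKM and ldha, the muscle-type subunit, at 163 FPKM. Pygma, the muscle glycogen phosphorylase that releases sugar from glycogen, had 257 FPKM, and pfkma, the phosphofructokinase of muscle, had 159.7 FPKM. The lowest members were the second copies eno1b (1.503 FPKM) and tpi1a (1.23 FPKM).

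Genes for oxidative metabolism were also prominent. Of 89 nuclear genes for the respiratory chain and ATP synthase, 79 ranked among the 1000 highest, with a median of 116 FPKM. The ATP synthase subunits atp5l (1235 FPKM, rank 17) and atp5g3b (1018 FPKM, rank 23) and the cytochrome oxidase subunit cox7c (818 FPKM, rank 33) led that list. Slc25a5, an ADP/ATP carrier of the inner mitochondrial membrane, ranked 9 at 3933 FPKM, and idh2, the mitochondrial isocitrate dehydrogenase, ranked 22 at 1022 FPKM. Nme2b.2, a nucleoside diphosphate kinase, stood at rank 5 (5463 FPKM), although Cuffdiff assigned it to a locus of 133096 bases shared by 13 features. Fatty acid use was led by the acyl-CoA dehydrogenases acadm (172 FPKM) and acadvl (159.6 FPKM), followed by the fatty acid binding protein fabp3 (149 FPKM) and the trifunctional protein subunit hadhb (61.5 FPKM). Myoglobin, the oxygen store encoded by mb, was at 45.5 FPKM. Of the 17 genes of this class, 16 were at 10 FPKM or more, and the fatty acid transporter cd36 was the exception (0.0119 FPKM). Mitochondrially encoded transcripts carry no symbol in the table, and those features were left out of the ranking.

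Thin filament genes were expressed from a few dominant copies. Actc1b (chr17:117120-124675), an actin annotated as cardiac, had the highest FPKM of the sarcomeric proteins (3839 FPKM, rank 10), followed by the skeletal actin acta1b (1591 FPKM, rank 16). Together they held 99.4% of the summed FPKM of the 5 sarcomeric actins, and acta1a, actc1a and zgc:86725 stood at 16.2, 13.2 and 3.36 FPKM. Tropomyosins, which cover the myosin binding sites of actin, were led by tpm1 (821 FPKM), tpm2 (703 FPKM), tpm3 (124 FPKM) and tpma (90.3 FPKM). Nebulin, the ruler of the thin filament encoded by neb, reached 88.3 FPKM. Its cardiac relative nebl stood at 0.2697 FPKM, and the leiomodin lmod2a was listed at 0.

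Fast isoforms prevailed among the troponins. Tnnt3b, a fast skeletal troponin T (chr7:39173856-39189346), ranked 21 at 1039 FPKM and made up 99.1% of the summed FPKM of troponin T genes, while slow tnnt1 had 0.263 FPKM and cardiac tnnt2a 5.23 FPKM. Fast troponin C, tnnc2, was at 399 FPKM, and tnnc1b, a copy of slow and cardiac troponin C, at 209.7 FPKM. The fast troponin I genes (tnni2) summed to 1031 FPKM and the slow ones (tnni1) to 89.1 FPKM, so fast genes held 92.04% of troponin I. Tnni2b.1 (299.5 FPKM), tnni2a.2 (281 FPKM) and tnni2b.2 (277 FPKM) led the fast genes and tnni1d (61.6 FPKM) the slow ones. Several tnni2 genes lie side by side on chromosomes 7 and 25, and the reads of such near copies are hard to assign.

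The motor protein itself followed the same order. Fast myosin heavy chains held 91.2% of the summed FPKM of the listed sarcomeric chains other than myh14, and slow and ventricular chains held 8.802%. Myhz1.1 contributed 487 FPKM, myhc4 314 FPKM and myhz2 169 FPKM, and all lie within one cluster on chromosome 5 with myhz1.2, myha and ns:zf-e68, which stood between 19.9 and 30.4 FPKM. These fast chains are near copies of each other, so their individual values are less certain than their sum. Vmhc, the ventricular chain, had 37.5 FPKM, and myh7ba, a relative of the slow tonic chain of mammals, 31.6 FPKM. The slow muscle chains smyhc1, smyhc2 and smyhc3 had 7.93, 9.78 and 2.25 FPKM. They share one locus of Cuffdiff with other features, and the atrial chain myh6 had 0.145 FPKM. Among the mammalian names for specialised extraocular chains, myh13 matched no feature and is not analysed here.

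Myosin light chains were led by mylpfa, the fast regulatory chain (1759 FPKM, rank 15), and mylz3, a fast alkali chain (994 FPKM, rank 24), followed by myl1 (229 FPKM) and zgc:66286 (182 FPKM). The chain that RefSeq names myl3, listed as zgc:163073, reached 75.7 FPKM. Myl2b had 54.5 FPKM, the chain that RefSeq names myl2a, listed as LOC100537244, 49.2 FPKM and myl4 10.7 FPKM. The cardiac chains myl7 and cmlc1 had 0.289 and 0.0144 FPKM, and mylpfb was listed at 0. In the thick filament and M band, titin was present from both genes, ttna at 189.6 FPKM and ttnb at 180.2 FPKM. Myosin binding protein H (mybphb, 152 FPKM) and the myosin chaperone methyltransferase smyd1a (104 FPKM) came next. The myosin binding proteins C were ordered mybpc1 (slow type, 47.4 FPKM), mybpc2a (fast type, 35.7 FPKM) and mybpc3 (cardiac type, 16.2 FPKM). All 18 genes of this class were above 1 FPKM, and myom3, a myomesin of the M band, was the lowest (4.16 FPKM).

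At the Z disc, which anchors thin filaments of neighbouring sarcomeres, tcap, the cap of titin, had the highest level (321 FPKM, rank 133), followed by the intermediate filament desma (146 FPKM), the fast fibre alpha-actinin actn3b (144 FPKM) and ldb3b (127 FPKM). Desmb, the second desmin, was at 0.0769 FPKM. The muscle LIM protein csrp3 stood at 0.823 FPKM. The dystrophin complex, which ties the cytoskeleton to the basement membrane, ranged from 0.574 FPKM for sgcz, a further sarcoglycan, to 24.5 FPKM for dmd, and 15 of 17 genes reached 1 FPKM. Dmd, dystrophin, reached 24.5 FPKM, sgcd, delta-sarcoglycan, 21.6 FPKM, sgcg, gamma-sarcoglycan, 18.04 FPKM and dtna, dystrobrevin, 17.3 FPKM. The dystrophin relative utrophin (utrn) had 9.31 FPKM on the higher of its 2 rows.

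The highest calcium handling genes encoded calcium pumps and a parvalbumin. Atp2a1, the fast twitch calcium pump (chr3:26014163-26023607), ranked 11 at 3434 FPKM, and with its relative atp2a1l (870.0 FPKM) it held 97.2% of the summed FPKM of 4 pump genes. The slow and cardiac type pump atp2a2a still reached 119 FPKM. Pvalb4, a parvalbumin that buffers cytosolic calcium, ranked 12 at 3403 FPKM and held 85.6% of parvalbumin FPKM. It was followed by pvalb3 (354 FPKM), pvalb7 (139 FPKM) and pvalb2 (51.6 FPKM), and pvalb9 was listed at 0. The lumenal binding proteins were srl, sarcalumenin (182 FPKM), and the calsequestrins casq1b (62.8 FPKM), casq2, the cardiac form (rank 411), and casq1a (47.5 FPKM). Tmem38a, a cation channel of the reticulum, had 108 FPKM. The release channels and their voltage sensors stood below the leading pump and buffer genes, with ryr1a at 52.9 FPKM, ryr1b at 11.1 FPKM, cacna1sa at 35.6 FPKM and cacna1sb at 7.72 FPKM. The cardiac ryanodine receptors ryr2a and ryr2b were at 0.0384 and 0.0783 FPKM. Cacng1, a subunit of the voltage sensor, has 2 rows, at 12.1 FPKM and at 0.

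Transcription factors of muscle, listed with a few membrane proteins of myoblast fusion, were expressed at lower levels than the leading sarcomere genes. Of 39 genes in this class, 32 reached 1 FPKM and 4 were among the 1000 highest: myod1 (36.4 FPKM), mef2aa (34.8 FPKM), myog (26.3 FPKM) and esrra (22.9 FPKM). Myod1 and myog encode myogenic bHLH factors, and the family's other members stood at 19.9 FPKM for myf6 and 1.42 FPKM for myf5. Mef2ca was just outside the 1000 highest (20.9 FPKM, rank 1020). The head muscle factors pitx3, msc and tbx1 had 10.6, 8.28 and 2.14 FPKM, lhx2b had 0.598 FPKM and tcf21 0.0104 FPKM. Pax7b and pax7a, markers of muscle stem cells, stood at 2.57 and 2.201 FPKM. Pax3a, the related factor of trunk muscle precursors, was at 0.0947 FPKM and pax3b was listed at 0. Hox genes, which pattern the trunk and not the anterior head, were low: all 49 were under 1 FPKM and 28 of them were listed at 0. The highest Hox value was 0.777 FPKM for hoxc12b.

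**Figure D2:**
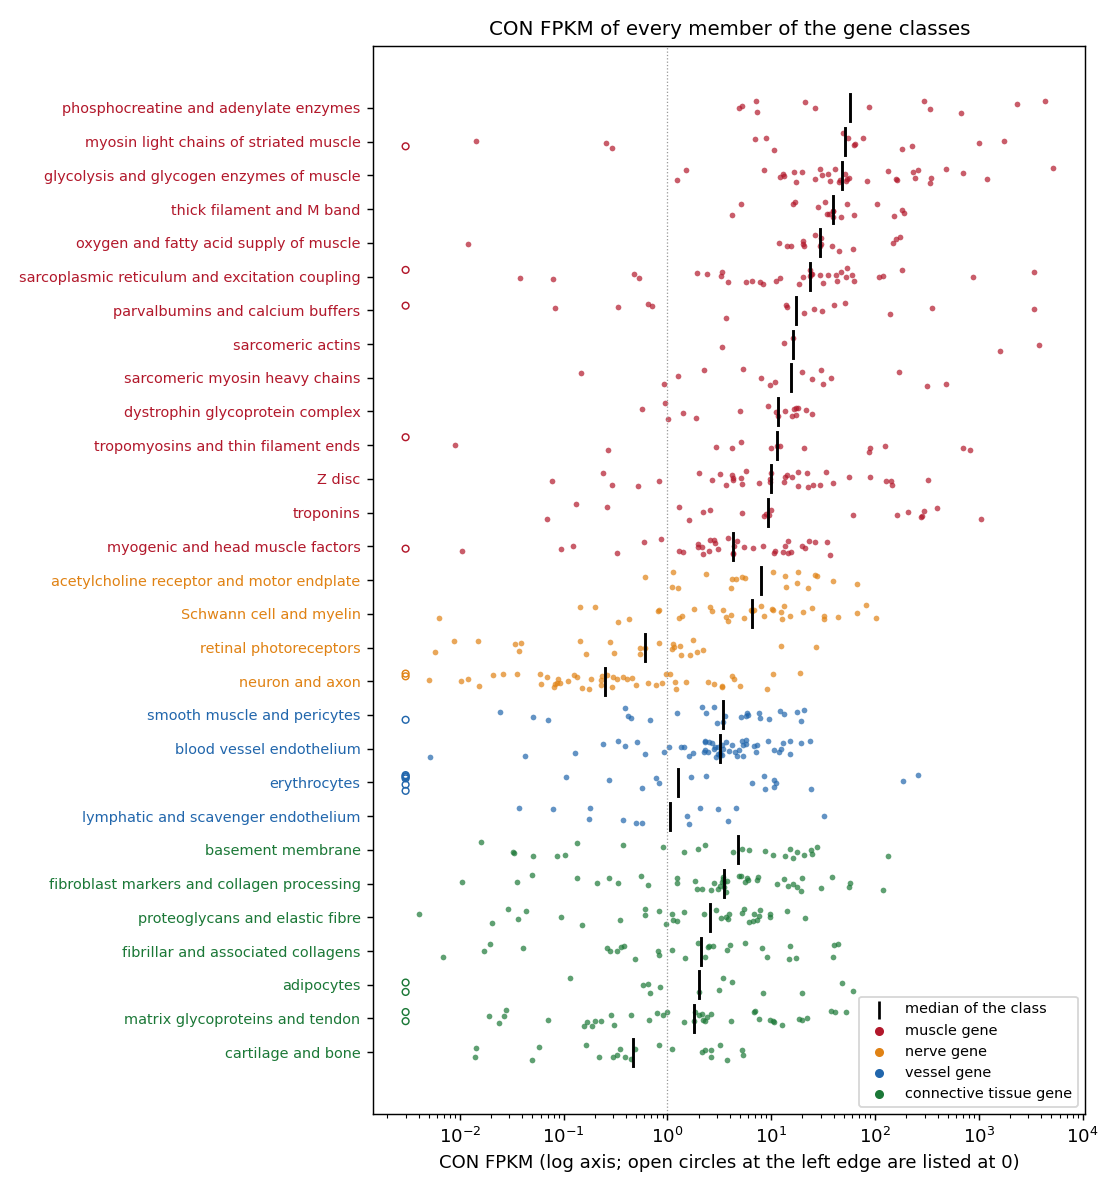
Each point is the CON FPKM of 1 gene on a log axis, by class, with classes ordered by median within each tissue, a black bar at the median and open circles at the left edge for genes listed at 0. Muscle class medians ran from 4.26 FPKM for the myogenic and head muscle factors to 57.4 FPKM for the phosphocreatine enzymes, while neuron and axon genes had a median of 0.248 FPKM.

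Zebrafish hold a second copy of many genes from a genome duplication, and the pairs described here ranged from near equal to far apart. The 42 pairs of copies or close relatives were chosen from the lists after their values were seen. Their counts describe only these pairs and give no rate for gene copies at large. In them, 1 second copy was listed at 0, 9 pairs differed at least 10-fold, 16 differed 2-fold to 10-fold and 16 differed less than 2-fold. The reads of near copies are hard to assign, so single ratios are uncertain. The widest ratios with both copies above 0 belonged to desma over desmb, tnnt3b over tnnt3a (808-fold) and actc1b over actc1a (291-fold). Triosephosphate isomerase tpi1b exceeded tpi1a 197-fold, and acta1b exceeded acta1a 98.2-fold. At the other end stood myom1a and myom1b (39.4 and 39.1 FPKM), ttna and ttnb, which lie on the same chromosome, and the mitochondrial creatine kinases. Both members of the pairs mbpb and mbpa, col1a1a and col1a1b and rgs5a and rgs5b, from nerve, connective tissue and vessel lists, were also at near levels.

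**Figure D3:**
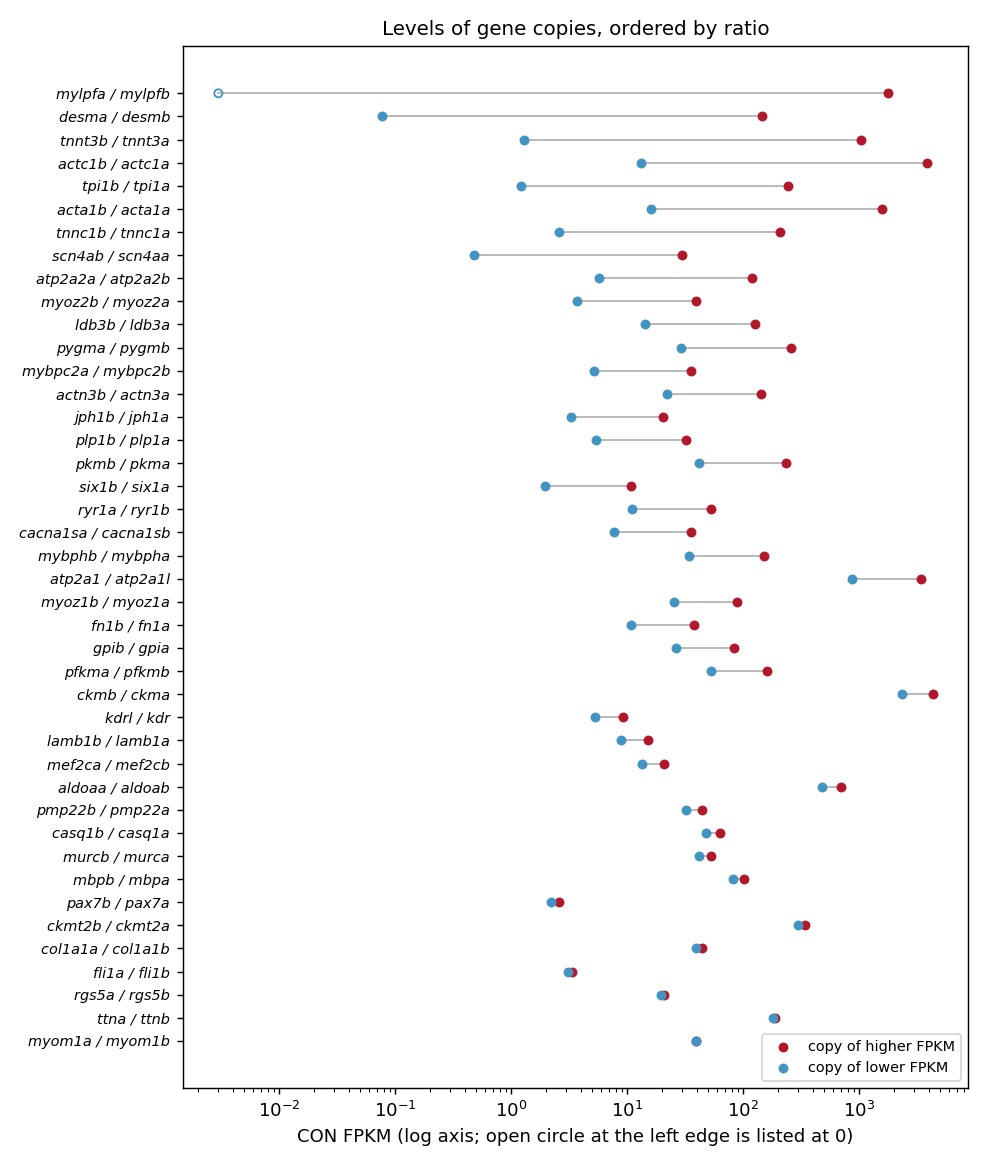
Each line joins the CON FPKM of the 2 copies of a gene on a log axis, red for the higher and blue for the lower copy, ordered by their ratio, with an open circle for a copy listed at 0. The upper lines span from mylpfa at 1759 FPKM to mylpfb at 0, and the lowest lines, such as myom1a and myom1b, nearly close.

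Among genes of the nerve lists, those of Schwann cells and of the motor endplate were the highest, and those of neurons were low. The endplate class includes receptor genes that the muscle fibre itself expresses. This class held 29.6% of the summed FPKM of the nerve list and 5 of its 13 genes among the 1000 highest. Myelin genes led with mbpb, a myelin basic protein (Entrez 368319, chr16:6862646-6909122), at 101 FPKM (rank 306). It was followed by mbpa (82.4 FPKM), mpz, the main glycoprotein of peripheral myelin (67.1 FPKM), and the peripheral myelin protein pmp22b (44.01 FPKM). Plp1b, the proteolipid protein, had 32.2 FPKM. Genes that mark Schwann cells more than their myelin stood below these leading genes. Among them were s100b (24.8 FPKM), gldn, the gliomedin of nodes of Ranvier (20.1 FPKM), foxd3 (15.1 FPKM), sox10 (3.79 FPKM) and egr2b (3.704 FPKM). S100b, gldn and foxd3 were above some other myelin genes, such as mag (12.3 FPKM) and plp1a (5.45 FPKM). Gfap, a glial filament protein, was at 0.429 FPKM. Of 36 Schwann cell and myelin genes, 29 reached 1 FPKM and 7 were among the 1000 highest. Over all features, 13085 of 30963 reached 1 FPKM.

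Of 20 genes for the acetylcholine receptor, its nerve signals and the matrix of the motor endplate, 19 reached 1 FPKM. The share over all features was 13085 of 30963. Ache, the acetylcholinesterase that ends transmission (chr7:25808242-25816662), had the highest level (67.6 FPKM, rank 375). The receptor subunits were ordered chrna1 (39.3 FPKM), chrnb1 (22.4 FPKM), chrnd (18.2 FPKM) and chrne (13.8 FPKM). Chrne encodes the adult epsilon subunit, and the fetal gamma subunit that RefSeq names chrng, listed as LOC100536659, had 1.27 FPKM. Musk, the receptor kinase that organises the endplate, reached 26.4 FPKM, its partner lrp4 10.5 FPKM, the anchoring protein rapsn 13.4 FPKM and dok7 4.19 FPKM. Agrin, the nerve signal for this pathway, listed as hm:gc12, had 5.23 FPKM. Lama4, a laminin chain that also counts as basement membrane, had 27.5 FPKM, and the lowest gene was erbb3b, a neuregulin receptor (0.601 FPKM).

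Neuron and axon genes had a median of 0.248 FPKM, and 14 of 52 reached 1 FPKM, beside 13085 of 30963 over all features. The highest were stmn1b (19.03 FPKM) and dpysl3 (10.5 FPKM), which encode regulators of the cytoskeleton, sncga, a synuclein (9.06 FPKM), and vamp1, a synaptic vesicle protein (5.03 FPKM). Pan-neuronal elavl3 had 0.302 FPKM, snap25a 1.19 FPKM, the neurofilament nefma 0.959 FPKM and gap43 0.0912 FPKM. Cholinergic genes were also under 1 FPKM, with choline acetyltransferase chata at 0.262 FPKM, the choline transporter slc5a7a at 0.0102 FPKM, and chatb and the neurofilament nefmb listed at 0. Motor neuron factors isl1, mnx1 and phox2a had 0.111, 0.0601 and 0.005001 FPKM. Of the 25 photoreceptor genes that the nerve list also holds, 11 were at 1 FPKM or more, near the share over all features (13085 of 30963). Their median was 0.611 FPKM, beside 0.584 FPKM over all features. The rod opsin rho was the highest (26.9 FPKM, rank 817), followed by pde6h (12.4 FPKM), arr3a (2.19 FPKM) and gngt1 (1.91 FPKM), while the rod transducin gnat1 had 0.833 FPKM. Without photoreceptor genes, 12 of 108 nerve genes were among the 1000 highest.

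Most genes of the blood vessel endothelium list were detected, at low levels. Of these 54 genes, 45 reached 1 FPKM and 8 reached 10 FPKM, beside 13085 and 2093 of 30963 over all features. The highest was vegfab, a growth factor ligand that other cells also make (23.7 FPKM, rank 915), followed by the water channel aqp8a.1 (19.3 FPKM), the TGF-beta co-receptor endoglin, eng (15.2 FPKM), and cav1, the coat protein of caveolae (15.1 FPKM). The VEGF receptors kdrl, flt1 and kdr had 9.31, 5.72 and 5.33 FPKM. The second copy of the ligand, vegfaa, had 12.9 FPKM, at a locus shared by 27 features. Of the other endothelial markers, pecam1 was at 5.18 FPKM, cdh5, VE-cadherin, at 4.88 FPKM, fli1a at 3.33 FPKM and tie1 at 2.86 FPKM. Vwf, von Willebrand factor, was at 1.04 FPKM. The arterial genes efnb2a and dll4 had 3.19 and 3.04 FPKM and the venous gene ephb4a 2.82 FPKM.

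Of 14 genes listed for lymphatic and scavenger endothelium, 7 reached 1 FPKM and 1 reached 10 FPKM. Over all features these counts were 13085 and 2093 of 30963. Figf, which RefSeq names vegfd, was the highest (32.3 FPKM, rank 687), whereas its receptor flt4 had 0.3701 FPKM, the sister ligand vegfc 0.179 FPKM and the lymphatic marker lyve1b 0.0375 FPKM. Mrc1b, nrp2b and nrp2a, which other cells also express, had 4.58, 3.86 and 3.05 FPKM. Stab1, mrc1a and the lymphatic marker prox1a had 2.05, 1.63 and 1.55 FPKM. The genes listed for mural cells were led by rgs5a (20.8 FPKM) and rgs5b (19.5 FPKM), regulators of G protein signalling in pericytes. The smoothelin smtnb (17.8 FPKM) and the PDGF receptor pdgfrb (13.2 FPKM) followed. Which cells expressed these genes was not tested. The contractile genes of smooth muscle were lower, with acta2 at 9.47 FPKM, myh11a at 5.83 FPKM, tagln at 5.66 FPKM and cnn1 at 2.83 FPKM, and cnn1a was listed at 0.

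Red blood cells gave the only vessel genes above 100 FPKM. The adult beta globin ba1 (chr3:54848843-54849644) had 259.5 FPKM and the adult alpha globin hbaa1 (chr3:54845510-54846331) 188 FPKM. Next in the list came the cytoskeleton genes ank1a (24.1 FPKM) and sptb (11.1 FPKM), which muscle fibres also express. Then came the transferrin receptor tfr1a (10.7 FPKM) and the carbonic anhydrase cahz (10.6 FPKM). The red cell transcription factors gata1a and klf1 were low (1.70 and 0.568 FPKM). Alas2, the heme synthesis enzyme of red cells, had 8.47 FPKM and slc4a1a, the band 3 anion exchanger, 6.56 FPKM. The embryonic globins hbae1, hbae3, hbbe1.1, hbbe2, hbbe3 and hbz were all listed at 0. Without the erythrocyte genes, 2 of 95 vessel genes (2.11%) were among the 1000 highest, which are 3.23% of all features. These 2 were the growth factor ligands figf and vegfab, which other cells also make.

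The leading connective tissue genes were of several kinds. Sparc, a collagen-binding matrix protein (Entrez 321357, chr14:25641654-25659565), was the highest (135 FPKM, rank 245). It led the basement membrane class, where lama4 (27.5 FPKM), lamc1 (24.9 FPKM) and hspg2, perlecan (24.05 FPKM), followed. The network collagens col4a1 and col4a2 had 20.8 and 13.5 FPKM, and lama2, the laminin chain of muscle fibres, 10.4 FPKM. Laminin chains of epithelia and of development were low, lama3 at 0.0159 FPKM and lama1 at 0.0329 FPKM, as were col4a3 (0.0326 FPKM) and col4a6 (0.0857 FPKM).

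Collagen I led the fibrillar collagens. Its chains col1a1a, col1a2 and col1a1b had 44.2, 39.8 and 39.1 FPKM (ranks 518, 569 and 578), and the microfibril collagens col6a1 and col6a2 had 17.2 and 15.1 FPKM. The collagen V chains col5a2a and col5a1, which start collagen I fibrils, had 14.8 and 9.15 FPKM, and the cartilage collagens col2a1a and col11a2 had 0.328 and 0.486 FPKM. Proteins that process collagen stayed below the collagen I chains, among them pcolcea at 14.6 FPKM, plod1a at 7.48 FPKM and lox at 1.22 FPKM. Decorin, the proteoglycan dcn that binds collagen fibrils, was just inside the 1000 highest (21.3 FPKM, rank 999), and next in its class stood the microfibril genes mfap5 (14.2 FPKM), efemp2a (9.79 FPKM) and fbn1 (9.77 FPKM). Lum, lumican, had 3.65 FPKM, and the elastins elna and elnb 3.82 and 0.827 FPKM.

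Fibroblast genes were led by s100a10b (119 FPKM, rank 271), lgals2a, a galectin (57.2 FPKM), anxa2a, the annexin partner of S100A10 (56.2 FPKM), and the transcription factor osr2 (38.8 FPKM). Several of these genes are used by other cells too. The matrix protease mmp2 had 30.4 FPKM, thy1, a surface protein of fibroblasts, 17.7 FPKM, the intermediate filament vim 16.4 FPKM and the PDGF receptor pdgfra 5.98 FPKM. The transcription factors prrx1a and twist1a had 1.82 and 0.0352 FPKM and the protease fap 0.552 FPKM. Matrix glycoproteins were headed by mgp, matrix Gla protein (52.7 FPKM, rank 456), igfbp5a, an IGF binding protein (40.8 FPKM), fibronectin fn1b (37.6 FPKM) and a thrombospondin listed as LOC100332237 (21.9 FPKM). Tendon genes were low: tnmd, tenomodulin, had 0.983 FPKM, scxa and scxb, scleraxis, 0.167 and 0.0265 FPKM, and mkxa 0.0278 FPKM. Clec3a and vtna were listed at 0.

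Adipocyte genes were uneven. The fatty acid binding protein fabp11a had 60.8 FPKM, and the adiponectins adipoqb and adipoqa had 47.8 and 19.9 FPKM. The leptin lepb followed (8.39 FPKM), and the nuclear receptor pparg had 4.22 FPKM. The lipid droplet coat gene plin1 and the second binding protein fabp11b were listed at 0. Cartilage and bone genes were all under 10 FPKM. Of these 22 genes, 13 were under 1 FPKM, near the share over all features (17878 of 30963). Bglapl (5.37 FPKM), phex (5.25 FPKM), bglap, osteocalcin (3.79 FPKM), and runx2b (3.22 FPKM) led that class, and sp7, osterix, stood at 0.296 FPKM.

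Markers of cell types were set beside the label of the tissue. They were chosen with earlier results of these data known, so their levels are no independent check of it. All 5 skeletal muscle markers lay between 1039 and 3839 FPKM, and the 6 motor endplate markers between 13.4 and 67.6 FPKM. Markers of other tissues were lower than those of skeletal muscle. Epidermal keratins were present, with krt4 at 34.9 FPKM, krt5 at 15.4 FPKM and epcam at 2.13 FPKM, and in the wider epidermal list icn, a calcium binding protein, reached 389 FPKM, krt8 167 FPKM, krt94 74.2 FPKM and krt15 67.2 FPKM. Pancreatic enzymes, among them ctrb1 at 9.74 FPKM, ela2 at 7.32 FPKM, try at 6.45 FPKM and ela2l at 5.51 FPKM, were all under 10 FPKM. Of the lens crystallins, crygs1 was the highest at 161 FPKM, followed by crygm3 (44.6 FPKM), crybb2 (43.2 FPKM) and crygs2 (27.8 FPKM), while cryaa had 1.95 FPKM. Leukocyte lists were led by the MHC class II chaperones cd74a (159 FPKM) and cd74b (104 FPKM), apoeb (55.6 FPKM) and mhc2dab (23.2 FPKM), with ptprc, the pan-leukocyte gene, at 2.52 FPKM, the macrophage gene mpeg1.1 at 4.37 FPKM and neutrophil mpx at 0.0635 FPKM. Brain genes apart from the glutamine synthetases glula (15.9 FPKM) and glulb (9.06 FPKM) were at or under 1.19 FPKM, with olig1 and olig2 listed at 0. The part of these cells in the levels above was not tested.

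**Figure D4:**
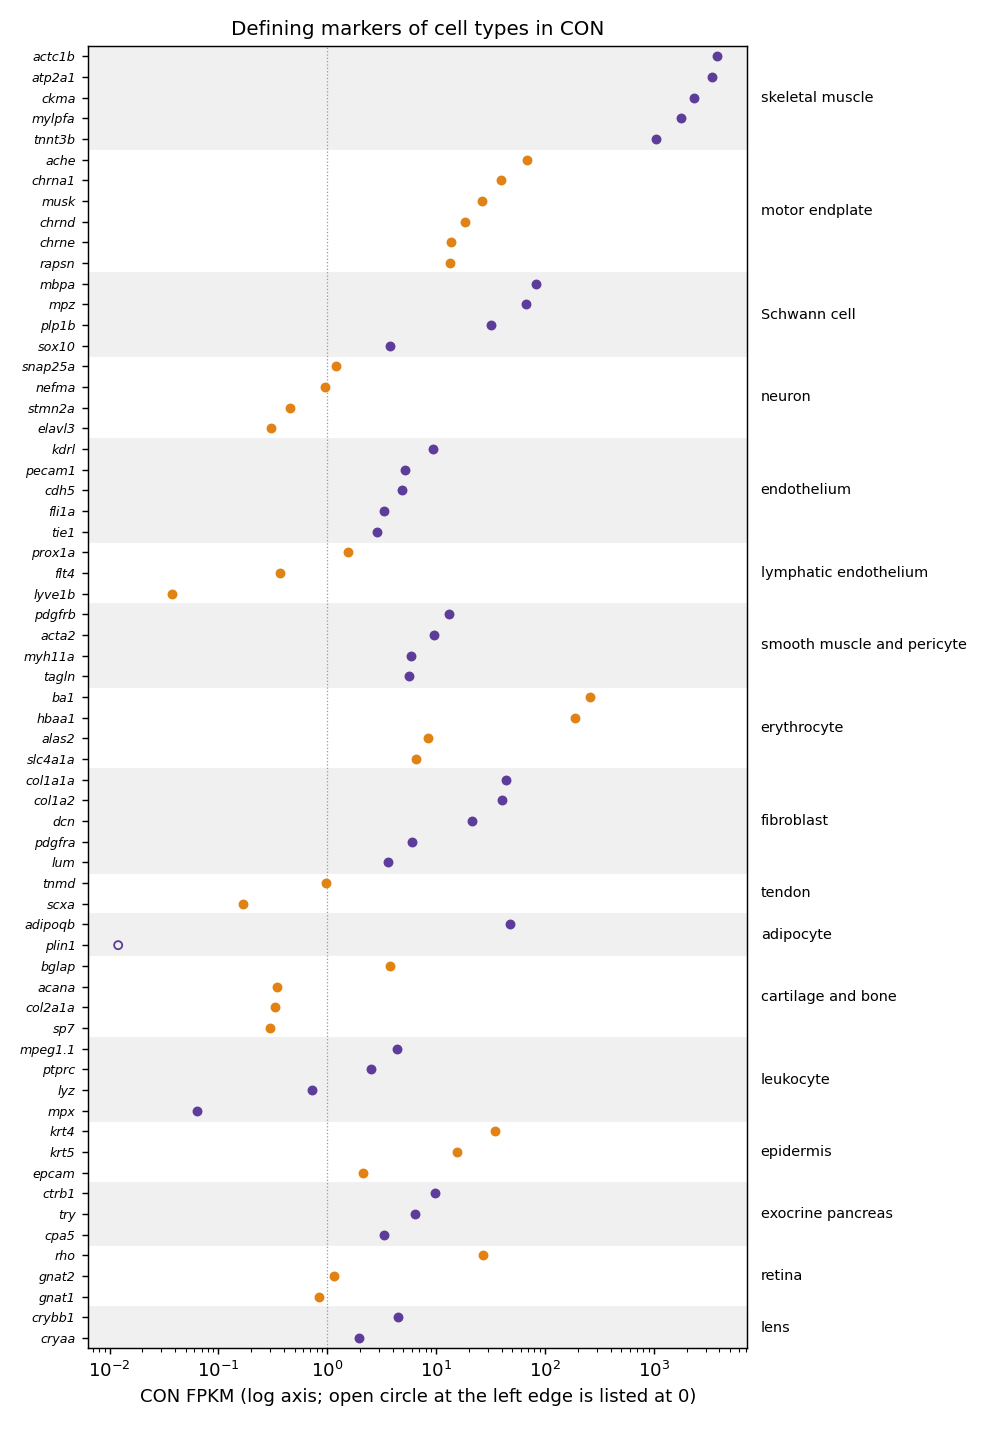
Each point is the CON FPKM of 1 marker gene on a log axis, grouped by the cell type it marks (right margin), with an open circle for a gene listed at 0. Skeletal muscle markers lie above 1000 FPKM, endplate and Schwann cell markers mostly between 10 and 100 FPKM, endothelial markers between 2.86 and 9.31 FPKM, and neuron, tendon and cartilage markers mostly under or near 1 FPKM.

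Genes that respond fast to handling, heat or tissue damage were listed to describe the state of the tissue. Hspa8, a constitutive heat shock protein, had 206 FPKM, and the small heat shock proteins of muscle hspb7 and hspb6 had 124 and 115 FPKM, with hsp90ab1 at 76.3 FPKM. The inducible genes hsp70l and hsp70 had 1.39 and 0.617 FPKM. Immediate early genes stood at 23.3 FPKM for jun, 16.2 FPKM for egr1, 9.51 FPKM for fos and 1.09 FPKM for atf3, and socs3a was listed at 0. Ribosomal protein genes were high for the most part, 80 of 82 ranking among the 1000 highest with a median of 373 FPKM, led by rps29 (1185 FPKM), rpl27a (1099.9 FPKM), rplp0 (970.5 FPKM) and rps15a (914 FPKM).

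The limits of rank used above fell within a continuous range of levels. At rank 100 the last muscle genes inside were aldoab and tnnc2 (399 FPKM) and the nearest outside were pvalb3 (354 FPKM) and ldhba (345 FPKM). At rank 1000 sgcd (21.6 FPKM) and dcn (21.3 FPKM) were inside, and ckbb (21.2 FPKM) and mef2ca (20.9 FPKM) were outside. Among the 25 highest features, LOC103909875 (3281 FPKM) and LOC103911833 (972 FPKM) are uncharacterized in the table and lie in loci of 239976 and 259813 bases.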

How the data were processed

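Adult zebrafish LR muscle was sequenced by the authors as rRNA-depleted total RNA, and the 4 CON libraries of 14 were used. Per the submitters' processing notes, reads passed FastQC 0.11.3 and were aligned to GRCz10 with TopHat2 2.0.13 and Bowtie2 2.2.1. The deposited FPKM come from the authors' Cuffdiff 2.2.1 run, which weighted multi-mapping reads, scaled by the upper quartile, counted compatible hits only and gave 1 value per feature and group. The authors' fold changes, p-values and q-values hold their comparisons and were not used. The 14 columns of a count table could not be assigned to libraries and were not used, so the planned spread between CON libraries was not computed and no test was run.

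Features were ranked by CON FPKM, and ties shared the smallest rank number. Class members were matched by symbol or RefSeq synonym (GRCz12tu, names and gene types only). The members and lists were chosen with earlier results of these data known, and patterns that caught wrong symbols were corrected by name. Genes named are the 25 highest features, the 4 highest and the defining members of each class, members listed at 0 and those next to ranks 100 and 1000, and others were chosen after their values were seen. Some genes are not reported here. Loci are GRCz10, counted from 1, and 5661 features share theirs with another. Detection was set at 1 FPKM. Alternatives were 0.5 and 5 FPKM, the CON values of the table with H18, loci of at least 300 bases, protein-coding genes, summed symbols and shares without the 3 highest features. The ranking was tested on simulated data. Python 3.11.15, numpy 2.4.6, pandas 2.3.3 and matplotlib 3.10.9 were used.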

Additional observations from a re-analysis of the deposited data

How the results depend on the processing

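The count of 13085 features at 1 FPKM or more became 4268 at a threshold of 5 FPKM. Leaving out the 3 highest features raised the share of the summed FPKM to 18.4% for muscle, 0.385% for nerve, 0.398% for vessel and 0.661% for connective tissue genes, from 1.80%, 0.0378%, 0.0391% and 0.0650%. Counting protein-coding genes only gave 23.4%, 0.484%, 0.506% and 0.835%, and 8 in place of 5 vessel genes among the 1000 highest. The order of muscle, connective tissue, vessel and nerve genes by share was the same under each of these, but vessel genes without those of erythrocytes (0.185% without the 3 highest features) fell below nerve genes (0.385%, or 0.363% without those of photoreceptors), a split chosen after seeing the data. All other values computed under an alternative stayed within 1.5 times the main value. The CON values of the second table differed for 5 features, none of them in a list. No paired analysis was possible because no values per library were used and no groups were compared. The alternatives from read counts, and the values without each CON library, were not run for the same reason.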

Other observations

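Some genes of pituitary hormones stood high in the ranking, within a set chosen after its values were seen. The glycoprotein hormone alpha subunit cga had 182 FPKM (rank 199), proopiomelanocortin pomca 166 FPKM, growth hormone gh1 148 FPKM and luteinizing hormone beta lhb 117 FPKM. The fish hormones smtlb and smtla, somatolactins of the pituitary, had 94.5 and 36.9 FPKM, and scg3, a secretory granule protein, 46.2 FPKM. Other genes of the gland were low, with fshb at 5.15 FPKM, prl, prolactin, at 4.65 FPKM, the transcription factor pou1f1 at 1.11 FPKM, lhx3 at 0.178 FPKM and tbx19 at 0.0679 FPKM, and pomcb and prl2 were listed at 0. The 19 genes of the set had a median of 3.92 FPKM, 14 reached 1 FPKM and 7 were among the 1000 highest. Over all features, 13085 of 30963 reached 1 FPKM. As the set was chosen with its values known, these counts are no result about pituitary genes as a group. With only 1 value for the group, whether these transcripts came from every CON library or from 1 of them was not tested.

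Features of microRNA genes reached high FPKM in these libraries, which were not made for small RNA. The hairpins mir133b and mir143-2 had 370.1 and 286 FPKM at loci of 84 and 99 bases, and mir1-2 had 106 FPKM. Mir133b and mir1-2 belong to microRNA families known from muscle, and mir143-2 to one known from smooth muscle. The related mir133c and mir1-1, and mir499a, had 26.03, 6.74 and 7.96 FPKM. FPKM divides by length, so that few reads can give a high value on a feature this short.

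The 24 mitochondrial features, which carry no symbol, held 28.1% of the summed FPKM of all 31014 features. One of them, 71 bases long, had 770451 FPKM and the next 68677 FPKM, and 23 of the 24 stood at 100 FPKM or more. Of the other 27 features without a symbol, 21 were listed at 0 and the highest had 7.14 FPKM.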
